A study of Rattus norvegicus with 18 samples.

Results

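A set of 10 genes that make, use or spare arginine in the kidney was followed across 18 rat kidney RNA-seq libraries. They were chosen by name, with earlier results of these data known. All (Ass1, Asl, Gatm, Arg2, Ddah1, Ddah2, Agxt2, Nos1, Nos2 and Nos3) were found among the 32116 genes of the deposited table. There were 3 groups of 6 libraries. In the SZ group rats were dosed daily with 100 mg per kg of adenine plus 300 mg per kg of SZ-A. The CKD group had that adenine dose alone, and the NC group was untreated. The sources used here do not give the nature of SZ-A or the strain, sex and age of the animals. The labels number the libraries but do not say that each came from its own animal, so the spread behind each p-value is that of these libraries and may be partly technical. Adenine given in excess forms crystals in the tubules and is used to model chronic kidney disease.

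The kidney is the main source of arginine for the rest of the body. Proximal tubule cells take up circulating citrulline, and argininosuccinate synthase (Ass1) and argininosuccinate lyase (Asl) turn it into arginine, using aspartate as the nitrogen donor. Part of that arginine is used in the same cells by glycine amidinotransferase (Gatm), which makes guanidinoacetate, the precursor that the liver methylates to creatine. Arginine is also split by the mitochondrial arginase Arg2 into ornithine and urea, and it is the substrate of the 3 nitric oxide synthases: neuronal Nos1, found in the kidney mainly in the macula densa, inducible Nos2, and endothelial Nos3. Asymmetric dimethylarginine, released when methylated proteins are broken down, inhibits these synthases. It is hydrolysed by Ddah1 and Ddah2, and the mitochondrial aminotransferase Agxt2 also degrades it along with the symmetric form.

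Values are FPKM, fragments per kilobase of gene length scaled by the library size the authors used, so that levels of different genes can be set side by side. A gene was tested where its FPKM was at least 1 in at least 6 libraries, which 13851 genes met. Differences were tested with limma on log2(FPKM + 1), and "rose" or "fell" is used only at a Benjamini-Hochberg adjusted p under 0.05 over all tested genes. Of the 10 genes, 7 met the minimum, and Nos1, Nos2 and Ddah2 did not.

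The promoters of the 4 genes that fell in CKD kidneys, and of Gatm, the most abundant of the set, are shown from RefSeq, build GRCr8, from 250 bases before to 50 after the annotated start, 5′ to 3′ on the gene's own strand. The table held a promoter for 7 of the 10 genes. Capitals mark any match, on either strand, to the letters of 6 motifs, which are spelled out with the matches. None of these matches overlapped another.
Ass1, chr3:35149480-35149779, plus strand: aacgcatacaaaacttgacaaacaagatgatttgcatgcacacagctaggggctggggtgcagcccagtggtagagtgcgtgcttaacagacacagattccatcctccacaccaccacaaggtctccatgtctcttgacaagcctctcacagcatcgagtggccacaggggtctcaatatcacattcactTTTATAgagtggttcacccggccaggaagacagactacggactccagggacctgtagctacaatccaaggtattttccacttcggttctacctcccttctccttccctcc
Asl, chr12:32295658-32295957, plus strand: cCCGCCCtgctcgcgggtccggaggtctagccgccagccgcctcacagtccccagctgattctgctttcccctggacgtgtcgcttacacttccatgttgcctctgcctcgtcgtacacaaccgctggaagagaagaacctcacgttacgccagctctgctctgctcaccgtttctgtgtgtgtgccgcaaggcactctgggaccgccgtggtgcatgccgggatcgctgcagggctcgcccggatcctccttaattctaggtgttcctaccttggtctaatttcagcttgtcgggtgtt
Ddah1, chr2:237327562-237327861, plus strand: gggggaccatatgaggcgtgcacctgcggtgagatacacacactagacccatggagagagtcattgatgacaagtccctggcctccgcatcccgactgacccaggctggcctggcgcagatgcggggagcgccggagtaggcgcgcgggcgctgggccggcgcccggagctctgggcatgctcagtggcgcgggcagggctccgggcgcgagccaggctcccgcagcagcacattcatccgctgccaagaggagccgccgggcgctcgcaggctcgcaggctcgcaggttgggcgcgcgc
Agxt2, chr2:61063166-61063465, plus strand: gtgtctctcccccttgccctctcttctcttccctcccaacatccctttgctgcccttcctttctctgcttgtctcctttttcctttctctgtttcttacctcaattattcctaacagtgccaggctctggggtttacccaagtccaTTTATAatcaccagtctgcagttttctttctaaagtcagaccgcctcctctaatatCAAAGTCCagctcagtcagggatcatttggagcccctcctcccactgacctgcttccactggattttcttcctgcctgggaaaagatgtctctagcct
Gatm, chr3:130129044-130129343, minus strand: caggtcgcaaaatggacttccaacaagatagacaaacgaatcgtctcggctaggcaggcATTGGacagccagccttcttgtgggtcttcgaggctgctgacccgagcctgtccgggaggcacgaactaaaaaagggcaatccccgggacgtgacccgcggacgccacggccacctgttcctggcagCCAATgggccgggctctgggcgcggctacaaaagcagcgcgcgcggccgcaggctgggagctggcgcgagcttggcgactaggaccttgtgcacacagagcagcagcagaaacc

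No motif was found in all 5 promoters, while the TATA box was found in both Ass1 and Agxt2. The Agxt2 window held CAAAGTCC, a core of sites for the liver and kidney factor HNF4, 48 bases before the start, a string present in 1.40% of the 33469 promoters of the table, and a TATA box (TATAAA) read on the opposite strand 104 bases before it. Ass1 held a TATA box on the opposite strand 60 bases before its start (14.2% of all promoters hold one on either strand). Gatm held CCAAT boxes (the letters CCAAT) 64 and 191 bases before its start (37.5% of all promoters), and Asl a GC box (GGGCGG) on the opposite strand 249 bases before its start (33.1%). None of the 6 strings was found in the Ddah1 window. A half-site of HNF1, GTTAAT, is in 7.45% of all promoters. It and the E-box, CACGTG, which is in 6.42%, were in none of the 5. The windows also differed in base composition. Ddah1 had 71% G and C with 31 CpG dinucleotides, Gatm 63% with 25 and Asl 60.3% with 22, while Ass1 had 51% with 6 and Agxt2 48.7% with 1. The median promoter of the table had 51.7% and 7. These are matches of letters, and no binding was measured.

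In the authors' build, mRatBN7.2, Ass1 lies at chr3:14747368-14796903, Asl at chr12:26659565-26679662, Gatm at chr3:109658951-109684129, Arg2 at chr6:97936002-97961378, Ddah1 at chr2:234667491-234799339 and Agxt2 at chr2:59336283-59377926. Nos1 lies at chr12:38626714-38710945, Nos2 at chr10:63815308-63851210, Nos3 at chr4:10793834-10814166 and Ddah2 at chr20:3761465-3764511. All 10 are annotated as protein coding. Of these, 2 lie wholly inside the span of another gene, which may bear on their values and was not tested. Asl lies wholly inside Vkorc1l1 on the opposite strand, which averaged 8.96 ± 0.704 FPKM in SZ, 7.73 ± 1.07 in CKD and 9.34 ± 1.32 in NC kidneys (SD, n = 6 each). Ddah2 lies wholly inside the annotated span of Clic1 on the same strand, and Clic1 averaged 61.6 ± 15.8 FPKM in SZ, 82.9 ± 25.4 in CKD and 33.7 ± 1.77 in NC kidneys. How the authors assigned reads shared by overlapping genes, and whether strand was used, is not stated in what was available here, so the near-zero Ddah2 values cannot be read as absence of its transcript.

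Each library held between 15354358 and 18532375 recovered reads. CKD 2, CKD 5 and SZ 3 stood apart: in them values fell with gene length relative to the mean library (by -0.211, -0.312 and -0.248 log2 units for each doubling, against -0.100 to 0.115 in the other 15). The deposited values imply library sizes that averaged 1.04 of the read total in SZ, 1.14 in CKD and 0.896 in NC libraries; this scaling was inferred from the values, and the sources used here do not state it. Under it the median gene stayed near no change (-0.04 on the log2 scale for CKD against NC). Scaling to a fixed FPKM sum (TPM) moved that median to 0.34 and plain read totals to 0.25, and the share of called genes that were higher moved to 83.7% and 77.6%, against 48.4% with the deposited scaling. For SZ against CKD the share was 37.9% with the deposited scaling, 14.5% with TPM and 17.9% with plain totals, and for SZ against NC 59.1%, 92.8% and 88.3%. All 13 proximal tubule markers were detected in every group, while 5 hepatocyte markers summed to at most 0.287 FPKM in SZ, 0.800 in CKD and 1.01 in NC kidneys, with Ttr at 0 in every CKD and NC library. Mitochondrial genes took a median of 13.9% of the reads in SZ (11.1 to 18.4%), 9.62% in CKD (5.86 to 16.0%) and 19.3% in NC libraries (14.7 to 24.1%), and the part of this share in the values was not tested.

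Gatm, Agxt2, Ass1 and Ddah1 were among the most abundant transcripts of the kidney. Gatm averaged 827 ± 347 FPKM in SZ, 578 ± 333 in CKD and 1011 ± 381 in NC kidneys (SD, n = 6 each), ranks 37, 56 and 34 of 23096 protein-coding genes. Agxt2 ranked 65, 84 and 56, Ass1 67, 124 and 61, and Ddah1 185, 372 and 121 in the same 3 groups. Asl, which acts directly after Ass1, was far lower, at ranks 884, 1568 and 1041. The order of mean levels in NC kidneys was Gatm, Agxt2, Ass1, Ddah1, Asl, Arg2, Nos3, Nos1, Ddah2 and Nos2. Gatm, Agxt2 and Ass1 overlapped there in the range of their libraries, and at the bottom Ddah2 overlapped with both Nos1 and Nos2, whose own ranges did not meet, while Ddah1, Asl, Arg2 and Nos3 each kept a range of their own. The order was the same in SZ and CKD kidneys down to Nos3. In CKD kidneys the ranges of Ass1 and Ddah1, and of Ddah1 and Asl, also overlapped, and in SZ kidneys those of Arg2 and Nos3. Below Nos3, Nos2 was the second of the synthases in CKD kidneys and the third in SZ and NC kidneys.

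**Figure D1:**
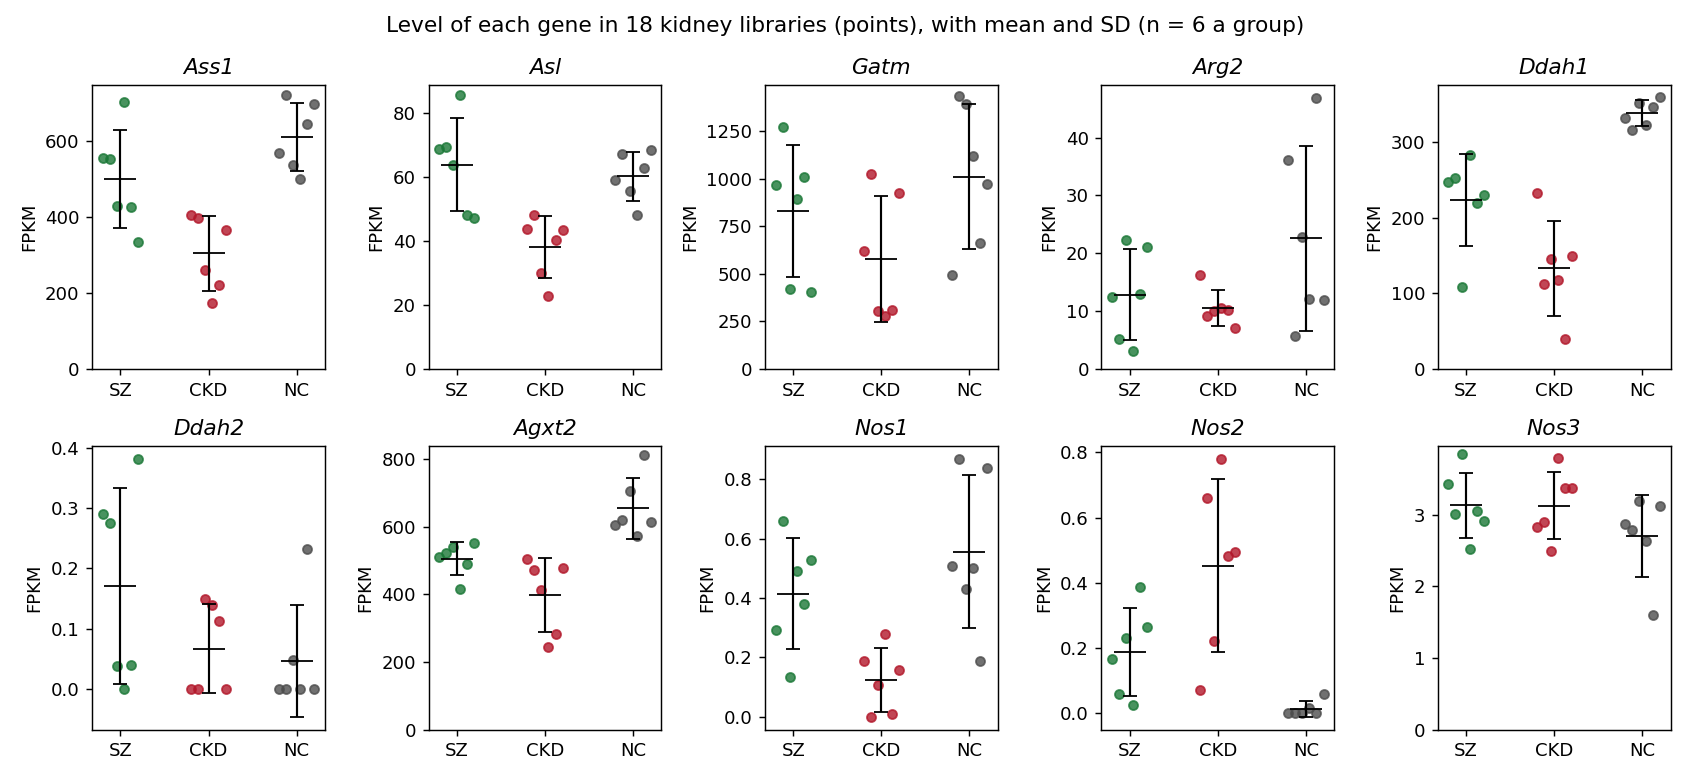
Level of each of the 10 genes in FPKM (vertical axis, linear) in the 6 SZ, 6 CKD and 6 NC libraries; points are libraries, and the horizontal mark and bar are mean and SD. CKD libraries lie below all NC libraries for Ass1, Ddah1 and Agxt2 and above them for Nos2, while Nos3 overlaps in the 3 groups.

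Both enzymes that make arginine from citrulline fell in CKD kidneys, which had adenine alone. Ass1 had a lowest, median and highest level of 174, 313 and 404 FPKM in CKD kidneys, against 499, 606 and 719 FPKM in NC kidneys. The highest CKD library was below the lowest NC library, and mean Ass1 in CKD kidneys was 0.498 of that in NC kidneys (log2 fold change -1.06, SE 0.21, limma adjusted p = 0.00049). With TPM the Ass1 difference was -0.61 (limma adjusted p = 0.0082), or -0.95 relative to the median gene. Asl had 22.8, 41.9 and 48.1 FPKM in CKD kidneys and 48.0, 60.9 and 68.4 FPKM in NC kidneys. The Asl ranges met at their edge, where 1 CKD library (CKD 2) stood just above the lowest NC library (NC 4), and Asl fell by 0.68 on the log2 scale (SE 0.17, limma adjusted p = 0.0034). The Asl call ended when libraries were scaled by TPM (log2 fold change -0.23, limma adjusted p = 0.18) or by plain totals (-0.34, limma adjusted p = 0.067). Relative to the median gene the difference was -0.57 with TPM and -0.59 with plain totals.

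Of the genes that consume arginine, Gatm had a coefficient of variation of 41.9% in SZ, 57.6% in CKD and 37.7% in NC kidneys, and Arg2 of 61.1%, 28.9% and 70.9% in the same groups, against 26.0%, 32.2% and 14.7% for Ass1. Gatm spanned 281, 466 and 1023 FPKM (lowest, median and highest) in CKD kidneys and 494, 1045 and 1433 FPKM in NC kidneys. The ranges overlapped widely, with CKD 2 and CKD 6 well inside the NC range, and the log2 fold change of -0.91 (SE 0.39) did not pass (limma adjusted p = 0.057). Gatm passed without CKD 2 (-1.12, limma adjusted p = 0.023), without CKD 6 (-1.09, limma adjusted p = 0.029), without NC 1 (-1.10, limma adjusted p = 0.029), without SZ 3 (limma adjusted p = 0.049) or without CKD 2, CKD 5 and SZ 3 together (-0.999, limma adjusted p = 0.047). It moved to -0.46 with TPM and -0.57 with plain totals. Arg2 had 7.13, 10.1 and 16.3 FPKM in CKD kidneys and 5.75, 17.4 and 46.9 FPKM in NC kidneys. The NC libraries themselves differed 8.16-fold in Arg2, and the difference between groups (-0.76, SE 0.45) did not pass (limma adjusted p = 0.17) except without NC 2 (-1.06, limma adjusted p = 0.048), and was -0.34 with TPM and -0.44 with plain totals.

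Both abundant genes of dimethylarginine clearance were lower in CKD kidneys than in every NC kidney. Ddah1 had 39.9, 132 and 232 FPKM in CKD kidneys, against 316, 339 and 359.6 FPKM in NC kidneys. It fell by 1.51 on the log2 scale (SE 0.30, limma adjusted p = 0.00044), the largest change of the 7 tested genes, and its spread differed as well: the coefficient of variation was 47.1% among CKD libraries and 5.12% among NC libraries. Agxt2 had 244, 441 and 504 FPKM in CKD kidneys and 572, 616 and 812 FPKM in NC kidneys. It fell by 0.75 (SE 0.17, limma adjusted p = 0.0013), a call that ended with TPM (-0.30, limma adjusted p = 0.13; -0.64 relative to the median gene) and held at -0.41 with plain totals (limma adjusted p = 0.037). The lowest CKD Ddah1 value came from CKD 5, and Ddah1 without CKD 2, CKD 5 and SZ 3 fell by 1.11 (limma adjusted p = 2.3e-05). Ddah2 was at 0 in 3 of 6 CKD and 4 of 6 NC libraries and had 11 reads over all CKD libraries and 6 over all NC libraries.

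The 3 synthases were low and did not follow a common direction. Nos3 had 2.49, 3.13 and 3.79 FPKM in CKD kidneys and 1.61, 2.83 and 3.19 FPKM in NC kidneys. These ranges overlapped (log2 fold change 0.17, SE 0.12, limma adjusted p = 0.26), and Nos3 passed as higher with TPM (0.51, limma adjusted p = 0.0070) and with plain totals (0.43, limma adjusted p = 0.012), where it stood 0.17 and 0.18 above the median gene. Nos1 had 0, 0.132 and 0.280 FPKM in CKD kidneys and 0.188, 0.505 and 0.870 FPKM in NC kidneys, from 70 and 235 reads in all. Nos2 had 0.0716, 0.489 and 0.781 FPKM in CKD kidneys, from 224 reads, while 4 of 6 NC libraries had no read at all and all 6 together had 5. Every CKD library had more Nos2 than the highest NC library, NC 6 at 0.0587 FPKM. In a fit of all 23814 genes with no minimum level, where 34% of genes were called, Nos1 was lower (log2 fold change -0.46, SE 0.11, limma adjusted p = 0.0035) and Nos2 higher in CKD kidneys (0.50, SE 0.10, limma adjusted p = 0.0011). The added 1 understates such changes, and limma voom on the recovered reads gave -2.83 for Nos1 (limma adjusted p = 0.0047) and 4.76 for Nos2 (limma adjusted p = 3.17e-05). The 2 CKD libraries with the fewest Nos1 reads were CKD 2 and CKD 5, and without these and SZ 3 Nos1 gave -0.38 (limma adjusted p = 0.019).

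In all, 4 of the 7 tested genes fell in CKD kidneys and 0 rose, against 26% of all tested genes lower and 24.4% higher. With TPM 2 were lower and 1 (Nos3) higher, against 1281 lower and 6591 higher of all 13851 tested genes. With plain totals 3 were lower and 1 (Nos3) higher, against 1730 lower and 5982 higher. With the deposited scaling the ranges of the groups did not overlap for 3 of the 7, against 26.5% of all tested genes. The median log2 fold change of the 7 genes was -0.76. Cell type markers moved in the same libraries. The 13 proximal tubule markers summed to 884 to 2320 FPKM (lowest and highest library) in CKD and 4184 to 5546 FPKM in NC kidneys, with 10 of the 13 lower and 0 higher (8 lower and 1 higher with TPM). The 7 markers of the thick ascending limb and macula densa summed to 223 to 663 FPKM in CKD and 876 to 2118 FPKM in NC kidneys. All 7 were lower (5 with TPM, 6 with plain totals). Markers of the distal tubule and collecting duct were lower in 7 of 8 (5 with TPM and with plain totals). Their sums were 185 to 733 FPKM in CKD and 476 to 1046 FPKM in NC kidneys. The 7 tested markers of injured tubules, such as Havcr1 and Lcn2, had a median log2 fold change of 4.67 and summed to 8068 to 14328 FPKM in CKD and 143 to 325 FPKM in NC kidneys, and 7 of 7 were higher. The 11 macrophage markers summed to 1066 to 2244 FPKM in CKD and 113 to 217 FPKM in NC kidneys, and 11 of 11 were higher. The 10 endothelial markers summed to 161 to 205 FPKM in CKD and 181 to 240 FPKM in NC kidneys, with 4 of 10 lower (1 lower and 4 higher with TPM, 1 lower and 3 higher with plain totals), and 5 neuronal markers to 2.49 to 7.01 FPKM in CKD and 0.699 to 1.31 FPKM in NC kidneys, where Snap25 was at 0. The part of these markers in the changes of the 10 genes was not tested, and in whole-kidney RNA fewer cells of a type and less RNA per cell cannot be told apart.

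**Figure D2:**
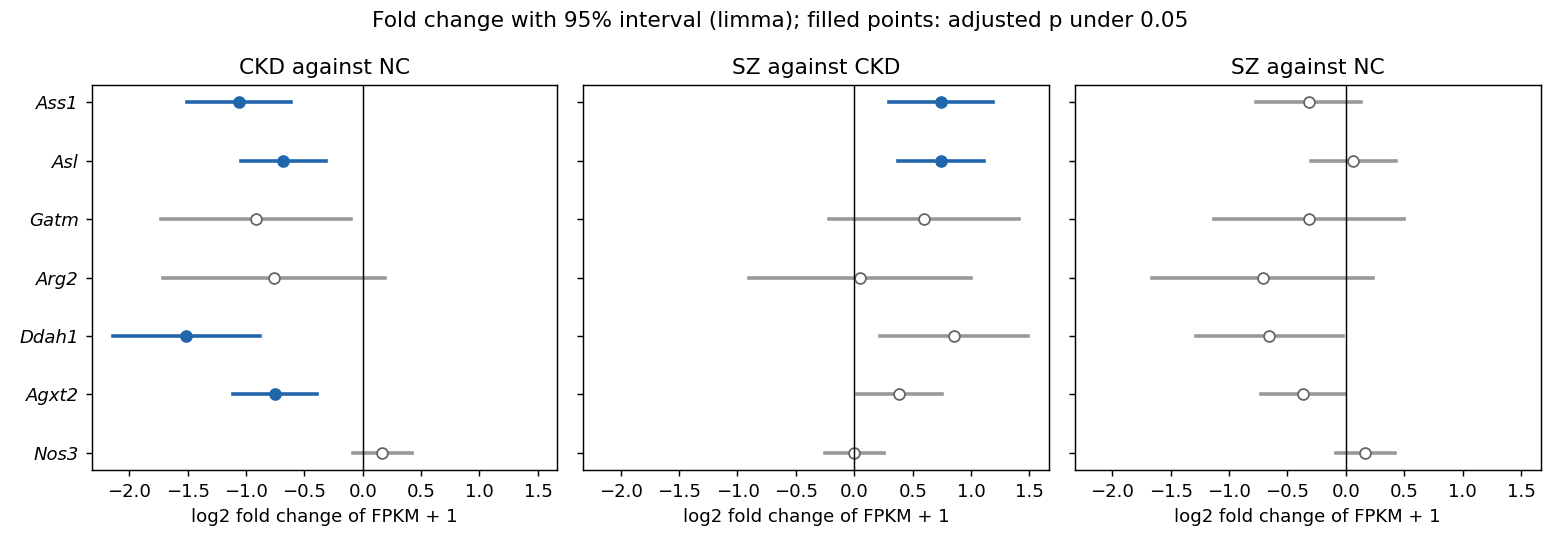
Log2 fold change of FPKM + 1 (horizontal axis) with its 95% interval for the 7 tested genes in the 3 comparisons of CKD against NC, SZ against CKD and SZ against NC; filled points have a limma adjusted p under 0.05. Ass1, Asl, Ddah1 and Agxt2 lie left of 0 in CKD against NC, and Ass1 and Asl lie right of 0 in SZ against CKD.

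With SZ-A added to adenine, the 2 enzymes of arginine synthesis were higher than with adenine alone. Ass1 had 334, 489 and 701 FPKM in SZ kidneys, against 174, 313 and 404 FPKM in CKD kidneys. All 6 SZ libraries were above the CKD median, although the lowest SZ library, SZ 6, fell inside the CKD range, and Ass1 rose by 0.74 (SE 0.21, limma adjusted p = 0.034). Asl had 47.3, 66.3 and 85.6 FPKM in SZ kidneys and 22.8, 41.9 and 48.1 FPKM in CKD kidneys, with only the edges of the ranges meeting. It rose by 0.74 (SE 0.17, limma adjusted p = 0.015). The Ass1 call ended without CKD 3 (limma adjusted p = 0.065), CKD 4 (0.066), CKD 5 (0.085), SZ 1 (0.072), SZ 2 (0.073) or SZ 4 (0.093), with no minimum level (0.062), and with only the 2 groups fitted (0.092), where Asl also ended (limma adjusted p = 0.051); in each of these fits both stayed higher in SZ kidneys. With no minimum level and 1 library left out, Asl passed in 14 of 18 fits, and its call ended without CKD 3, SZ 1, SZ 2 or SZ 4 (limma adjusted p = 0.058, 0.062, 0.059 and 0.074), while Ass1 passed in 3 of 18.

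The other tested genes did not pass in this comparison. Ddah1 had 108, 238 and 283 FPKM in SZ kidneys and 39.9, 132 and 232 FPKM in CKD kidneys. Of the 6 SZ libraries, 5 were above the CKD median, and the low one was SZ 3, one of the libraries in which values fell with gene length (log2 fold change 0.85, SE 0.30, limma adjusted p = 0.070). Ddah1 passed without SZ 3 (1.05, limma adjusted p = 0.018), without CKD 1 (1.05, limma adjusted p = 0.016), and without CKD 2, CKD 5 and SZ 3 together (0.65, limma adjusted p = 0.016). Agxt2 had 417, 516 and 552 FPKM in SZ kidneys and 244, 441 and 504 FPKM in CKD kidneys. Its SZ libraries lay close together, with a coefficient of variation of 9.61% against 27.5% among CKD libraries, and the difference was 0.39 (SE 0.17, limma adjusted p = 0.14), and 0.24 with TPM. Gatm had 404, 929 and 1273 FPKM in SZ kidneys and 281, 466 and 1023 FPKM in CKD kidneys (0.60, SE 0.39, limma adjusted p = 0.32). Arg2 had 3.14, 12.8 and 22.3 FPKM in SZ kidneys and 7.13, 10.1 and 16.3 FPKM in CKD kidneys, so the CKD range lay inside the SZ range (0.05, 95% interval -0.90 to 1.00, limma adjusted p = 0.95). The direction of this Arg2 difference turned with TPM (-0.08) and with plain totals (-0.06). Nos3 had 2.52, 3.03 and 3.85 FPKM in SZ kidneys and 2.49, 3.13 and 3.79 FPKM in CKD kidneys, a difference of 0.0016 with a 95% interval of -0.25 to 0.25 (limma adjusted p = 0.99) that also turned with TPM (-0.12) and plain totals (-0.10).

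The 2 low synthases stood in opposite order. Nos1 had 0.134, 0.436 and 0.660 FPKM in SZ kidneys, from 205 reads, against 0, 0.132 and 0.280 FPKM from 70 reads in CKD kidneys. All 6 SZ libraries were above the CKD median of Nos1 (0.33, SE 0.11, limma adjusted p = 0.093 with no minimum level). Nos2 had 0.0260, 0.198 and 0.387 FPKM in SZ kidneys, from 89 reads, against 0.0716, 0.489 and 0.781 FPKM from 224 reads in CKD kidneys. All 6 SZ libraries were below the CKD median of Nos2 (-0.28, SE 0.10, limma adjusted p = 0.13 with no minimum level). Neither passed with all libraries; Nos1 passed without SZ 3 (0.39, limma adjusted p = 0.034) and Nos2 without CKD 1 (-0.36, limma adjusted p = 0.014). Ddah2 had 24 reads over the SZ libraries, 1 of which had none, against 11 over the CKD libraries.

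In this comparison 2 of the 7 tested genes rose and 0 fell, against 4.16% of all tested genes higher and 6.82% lower, and no gene of the 7 had ranges that did not overlap, against 2.26% of all tested genes. The number of genes called over the whole table was itself sensitive to single libraries, from 533 without SZ 4 to 3058 without SZ 3. Proximal tubule markers summed to 2528 to 3659 FPKM in SZ and 884 to 2320 FPKM in CKD kidneys, with 7 of 13 higher and 0 lower. Macrophage markers summed to 439 to 970.0 FPKM in SZ and 1066 to 2244 FPKM in CKD kidneys, with 10 of 11 lower. The thick ascending limb and macula densa markers summed to 335 to 485 FPKM in SZ and 223 to 663 FPKM in CKD kidneys, and 0 of 7 passed in either direction. Markers of injured tubules summed to 3642 to 9853 FPKM in SZ and 8068 to 14328 FPKM in CKD kidneys, with 1 of 7 lower (3 lower with TPM and with plain totals), and 2 of 8 markers of the distal tubule and collecting duct were higher. Their part in the values of the 10 genes was not tested.

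Set against untreated kidneys, SZ kidneys had less Ddah1 and Agxt2 in every library, without passing the test. Ddah1 had 108, 238 and 283 FPKM in SZ kidneys and 316, 339 and 359.6 FPKM in NC kidneys (-0.65, SE 0.30, limma adjusted p = 0.13). Agxt2 had 417, 516 and 552 FPKM in SZ kidneys and 572, 616 and 812 FPKM in NC kidneys (-0.37, SE 0.17, limma adjusted p = 0.14). For both genes the highest SZ library was below the lowest NC library. Both passed when only these 2 groups were fitted (limma adjusted p = 0.019 for Ddah1 and 0.021 for Agxt2), and Ddah1 also passed without CKD 5 (limma adjusted p = 0.026) and without CKD 2, CKD 5 and SZ 3 (-0.46, limma adjusted p = 0.022). Scaling moved these differences. Agxt2 gave -0.059 with TPM (limma adjusted p = 0.82) and -0.15 with plain totals (limma adjusted p = 0.53), which is -0.28 and -0.30 relative to the median gene, and Ddah1 gave -0.35 and -0.44 (limma adjusted p = 0.41 and 0.29). Ass1 (-0.32, 95% interval -0.77 to 0.13) and Gatm (-0.32, 95% interval -1.13 to 0.49) overlapped with NC kidneys. Asl gave 0.06 (95% interval -0.30 to 0.43), Arg2 -0.71 (-1.66 to 0.24) and Nos3 0.17 (-0.08 to 0.42). With TPM, Ass1 gave -0.0092, Gatm -0.010, Asl 0.37, Arg2 -0.42 and Nos3 0.39, and with plain totals -0.099, -0.0999, 0.28, -0.51 and 0.33 in the same order; none of these 5 passed under either scaling (lowest limma adjusted p = 0.057, Nos3 with TPM).

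Of the 7 tested genes 0 were higher and 0 lower by limma in SZ against NC, where 12.5% of all tested genes were higher and 8.61% lower. At an unadjusted limma p under 0.05 there were 2, Ddah1 and Agxt2, against 4740 of all 13851 tested genes. Voom on the recovered reads also called 0 of the 7, against 2719 of all tested genes. Ranges did not overlap for 2 of the 7, against 14.6% of all tested genes. Nos2 had 89 reads over the SZ libraries and 5 over the NC libraries, and every SZ library was above the NC median of 0, although SZ 4, at 0.0260 FPKM, was below NC 6. Without a minimum level this gave 0.22 (limma adjusted p = 0.18), and voom on the reads, again without a minimum, gave 3.47 (limma adjusted p = 0.0063). Macrophage markers summed to 439 to 970.0 FPKM in SZ and 113 to 217 FPKM in NC kidneys, with 10 of 11 higher. Markers of injured tubules were higher in 7 of 7. Those of the thick ascending limb and macula densa were lower in 6 of 7 (5 with TPM). Of 13 proximal tubule markers 0 passed in either direction, and the part of all these markers was not tested.

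The balance between Ass1 and Asl was compared as a ratio within each library, which does not depend on the library size apart from the added 1. This ratio and the others tested were chosen with earlier results of these data known, so their p-values are not those of pairs fixed in advance. The log2 ratio of Ass1 over Asl averaged 2.94 ± 0.15 in SZ, 2.94 ± 0.27 in CKD and 3.32 ± 0.06 in NC kidneys (SD, n = 6 each). It was lower in all 6 CKD and all 6 SZ libraries than in any NC library, by 0.38 in each comparison (2-sided exact permutation p = 0.0022, the smallest that 924 splits allow, adjusted p = 0.013 over 18 ratio tests). SZ and CKD kidneys differed by -0.00089 in it (exact permutation p = 0.99). Both groups given adenine thus had less Ass1 for a given level of Asl than NC kidneys. Without CKD 5, the library with the lowest ratio, the CKD difference was -0.28.

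The ratio of Agxt2 over Ddah1 was 1.70 ± 0.66 on the log2 scale in CKD and 0.94 ± 0.16 in NC kidneys, a difference of 0.76 (exact permutation p = 0.011, adjusted p = 0.039). The call depended on the libraries kept. Without CKD 2, CKD 5 and SZ 3 together the difference was 0.39 (exact permutation adjusted p = 0.17). Leaving out any 1 of the CKD and NC libraries other than CKD 1, CKD 4 or NC 5 gave an adjusted p of 0.056 or more. The difference itself ran from 0.53 to 0.89 when 1 library was left out. The ratio of Ddah2 over Ddah1 was higher by 1.54 in CKD than in NC kidneys and by 0.81 in SZ than in NC kidneys (exact permutation adjusted p = 0.013 and 0.019). With Ddah2 near 0 in all groups, this ratio repeats the Ddah1 difference. Arg2 over Ass1, Gatm over Gamt and Nos3 over the endothelial marker Pecam1 did not pass in any of the 3 comparisons. The ratio of Nos3 over Pecam1 was -2.33 ± 0.35 in CKD and -2.74 ± 0.29 in NC kidneys (difference 0.41, exact permutation adjusted p = 0.18).

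**Figure D3:**
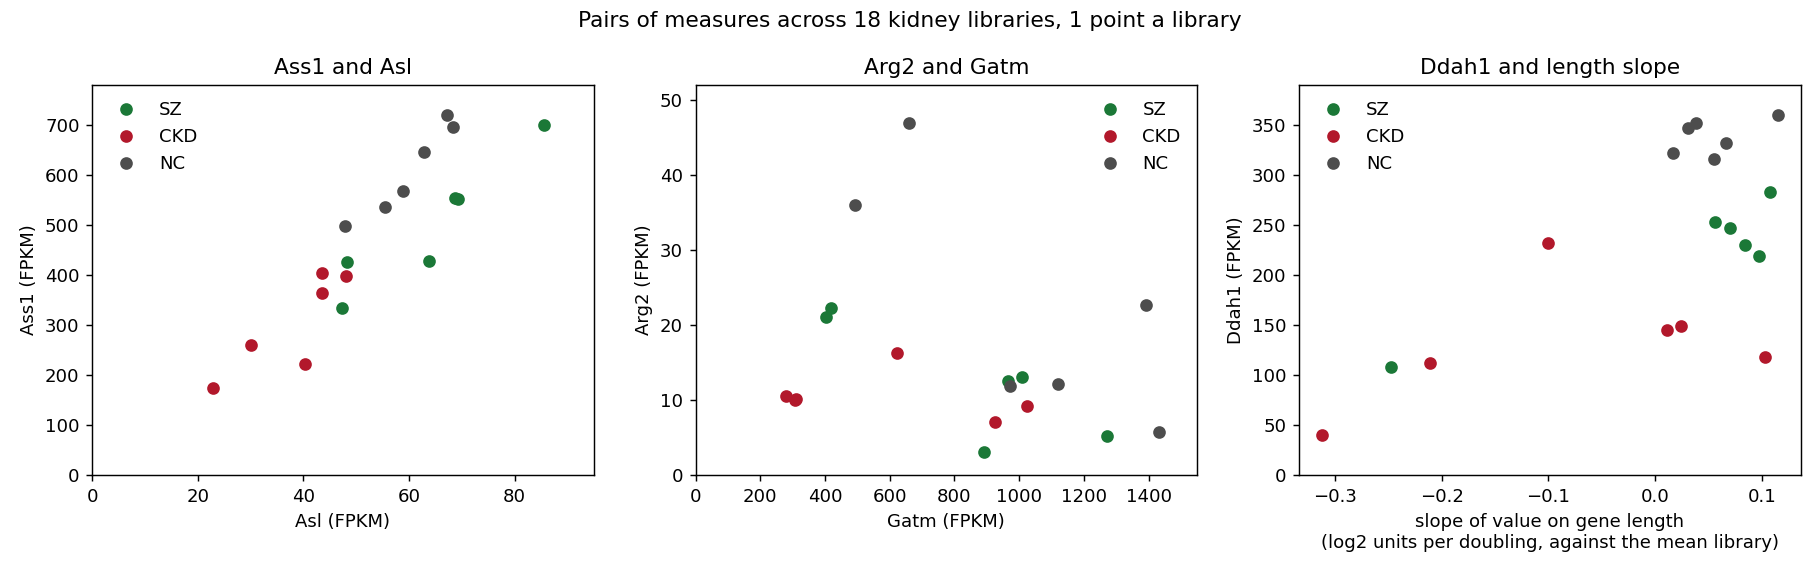
Each point is 1 of the 18 libraries, coloured by group: Ass1 against Asl (FPKM), Arg2 against Gatm (FPKM), and Ddah1 (FPKM) against the slope of a library's values on gene length (log2 units per doubling). NC libraries lie above the SZ and CKD libraries in Ass1 at a given Asl, and SZ 3, CKD 2 and CKD 5 lie at the low end of slope.

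Within groups the genes varied in different ways, as a description over 18 libraries that share depth, scaling and tissue makeup. With group means taken out, log2(FPKM + 1) of Ass1 and Asl had a Pearson r of 0.88, the highest of the 21 pairs, and 0.92, 0.85 and 0.96 within SZ, CKD and NC kidneys (n = 6 each). Ass1 and Gatm had 0.68 over all libraries but 0.04 within NC kidneys. Gatm and Arg2 went against each other, at -0.57 overall and -0.72, -0.25 and -0.76 within SZ, CKD and NC kidneys. The NC libraries with the least Gatm, NC 1 and NC 5, were the 2 with the most Arg2, at 36.0 and 46.9 FPKM. Ddah1 was the gene that followed the length slope of the library, with r = 0.72 against -0.34 to 0.11 for the other 6, so its spread within CKD and SZ kidneys was read beside that measure.

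The 2 genes most like each tested gene, by the same within-group r over 18 libraries, were largely different for each. They were Ddc (0.96) and Serpinc1 (0.94) for Ass1, Phgdh (0.94) and Mtarc1 (0.92) for Asl, and Ctsc (0.88) and Atp6v1b2 (0.86) for Gatm. For Arg2 they were Tnfrsf11b and Cidec (0.97 each), for Ddah1 Slc1a1 and Hykk (0.98 each), for Agxt2 Vcp (0.88) and Tomm70 (0.86), and for Nos3 Uckl1 (0.79) and Tra2a (0.76). No 2 of the 7 genes shared a nearest gene.

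Around the 10 genes, 70 further genes of the pathway were listed, of which 62 were in the table and 53 were tested. In CKD against NC 18 rose and 15 fell, with a median log2 fold change of -0.02, against -0.04 over all tested genes. With TPM 28 rose and 7 fell, and with plain totals 25 rose and 7 fell. Over all 13851 tested genes 24.4% were higher and 26% lower with the deposited scaling. With TPM 6591 of them were higher and 1281 lower, and with plain totals 5982 and 1730. The same all-gene figures are the background for each list below in CKD against NC. Of the genes named here as called in CKD against NC, Gamt, Nostrin, Oat and Pts kept their direction but not their call under both of these scalings, and in SZ against CKD the same held for Slc25a15 and Nos1ap. Calls were also gained under both: Slc7a7 as higher in CKD against NC, and Calm2, Ckb and Prmt1 as lower in SZ against CKD. In the urea cycle list, the mitochondrial carriers Slc25a13 and Slc25a15 moved in the same directions as Ass1 and Asl. Slc25a13, which exports aspartate from mitochondria, averaged 52.4 ± 6.32 FPKM in SZ, 34.1 ± 12.6 in CKD and 77.1 ± 7.45 in NC kidneys. It fell by 1.23 in CKD against NC (limma adjusted p = 3.2e-05) and rose by 0.68 in SZ against CKD (limma adjusted p = 0.028). Slc25a15, the ornithine and citrulline carrier, fell by 1.18 (limma adjusted p = 0.00068) and rose by 0.81 (limma adjusted p = 0.042). Arg1, the cytosolic arginase of the liver, rose by 0.69 in CKD against NC but stayed at 1.89 ± 1.11 FPKM in CKD and 0.693 ± 0.306 FPKM in NC kidneys. Otc, the liver enzyme that makes citrulline from ornithine, had 0.149 FPKM in SZ, 0.173 in CKD and 0.139 in NC kidneys and was not tested.

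Of 7 tested transporters of arginine, 2 were higher and 1 lower in CKD against NC, and with TPM 5 were higher and 1 lower (4 and 1 with plain totals). Slc3a1, the heavy chain of the apical cystine and dibasic amino acid transporter, fell by 1.33 (limma adjusted p = 0.00099), while its light chain Slc7a9 averaged 103 ± 21.6 FPKM in CKD and 104 ± 21.7 in NC kidneys (limma adjusted p = 0.998), and passed as higher with TPM (0.45, limma adjusted p = 0.039). The basolateral exporter Slc7a7 averaged 152 ± 46.5 FPKM in SZ, 144 ± 41.5 in CKD and 118 ± 49.0 in NC kidneys. In CKD against NC it did not pass with the deposited scaling, and passed as higher with TPM (0.78, limma adjusted p = 0.017) and with plain totals (0.67, limma adjusted p = 0.034). Slc7a6 rose by 1.40 in CKD against NC (limma adjusted p = 6.8e-07) and fell by 0.67 in SZ against CKD (limma adjusted p = 0.012). Slc7a2 rose by 0.78 in CKD against NC (limma adjusted p = 0.022). Both were near the minimum of 1 FPKM in NC kidneys. Slc7a6 averaged 4.47 ± 1.44 FPKM in CKD and 1.03 ± 0.224 in NC kidneys, and Slc7a2 2.23 ± 1.58 and 0.709 ± 0.251.

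Of 12 tested genes of ornithine, proline and polyamine metabolism, 5 rose and 4 fell in CKD against NC, and 0 passed in SZ against CKD. The CKD count was 6 higher and 1 lower with TPM, 5 and 1 with plain totals, and 3 and 3 without CKD 2, CKD 5 and SZ 3. Oat, which turns ornithine toward glutamate, fell by 1.13 (limma adjusted p = 0.015, and 0.052 without CKD 2, CKD 5 and SZ 3), and Aldh18a1, which starts proline and ornithine synthesis from glutamate, rose by 1.27 (limma adjusted p = 4.1e-07). Agmat, an agmatinase, fell by 0.98, and Azin2, an inhibitor of antizyme, rose by 0.81, from low levels (2.61 ± 0.877 FPKM in CKD and 1.02 ± 0.227 in NC kidneys). In the creatine list 1 of 4 rose and 1 fell (1 and 0 with TPM and with plain totals, 1 and 2 without CKD 2, CKD 5 and SZ 3). Gamt, which methylates guanidinoacetate to creatine, averaged 17.8 ± 3.51 FPKM in SZ, 16.5 ± 3.61 in CKD and 29.6 ± 11.1 in NC kidneys, far under Gatm in each group, and fell by 0.75 in CKD against NC (limma adjusted p = 0.0067). Ckb, the brain-type creatine kinase, rose by 1.66 (limma adjusted p = 1.5e-05), and the creatine transporter Slc6a8 gave -0.39 (limma adjusted p = 0.091).

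On the side of methylarginine and nitric oxide, the writers of methylarginine rose or did not pass. Of 8 tested protein arginine methyltransferases, 3 rose and 0 fell in CKD against NC (6 and 0 with TPM and with plain totals). The median log2 fold change of the 8 was 0.04. Of all 13851 tested genes 24.4% were higher and 26% lower, and with TPM 6591 and with plain totals 5982 were higher. Prmt1, the main enzyme of asymmetric dimethylation, rose by 0.80 (limma adjusted p = 2.8e-05), and Prmt2 by 0.59. Prmt2 fell by 0.47 in SZ against CKD (limma adjusted p = 0.028). Of 4 tested genes for tetrahydrobiopterin, the cofactor of the synthases, 3 fell and 1 rose (1 and 1 with TPM and with plain totals). Qdpr, which recycles the pterin, fell by 0.83 and Pts, which acts in its synthesis, fell by 0.68 (limma adjusted p = 0.00085 and 0.0019). Gch1, the entry enzyme, rose by 0.45 (limma adjusted p = 0.024, and 0.10 without CKD 2, CKD 5 and SZ 3). It was near the minimum of 1 FPKM, at 1.63 ± 0.503 in CKD and 0.926 ± 0.334 in NC kidneys. Among 9 tested partners of the synthases 3 rose and 3 fell, a split that depended on the scaling, with 6 higher and 1 lower under TPM and 5 and 1 under plain totals. Dynll1, a dynein light chain that binds Nos1, rose by 1.07 in CKD against NC and fell by 0.96 in SZ against CKD (limma adjusted p = 0.0010 and 0.018), and Calm2, a calmodulin gene, rose by 0.45 in CKD against NC. Nos1ap, an adaptor of Nos1, fell by 0.78 and rose by 0.38 in these comparisons (limma adjusted p = 1.9e-05 and 0.036), and Nostrin, which traffics Nos3, fell by 0.90 in CKD against NC. Both subunits of the nitric oxide receptor were higher in CKD against NC, Gucy1a1 by 1.44 and Gucy1b1 by 1.24 (limma adjusted p = 0.00017 and 0.00028). Of 9 markers of smooth muscle and fibroblasts in the same comparison, 7 were higher and 1 lower (7 and 0 with TPM and with plain totals). These markers summed to 405 to 1084 FPKM in CKD and 89.8 to 181 FPKM in NC kidneys, and their part was not tested. Pde9a, which degrades cyclic GMP, fell by 0.89 and rose by 0.72 in SZ against CKD (limma adjusted p = 0.00032 and 0.016).

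With the deposited scaling, 4 of the 53 rose in SZ against CKD (Slc25a13, Slc25a15, Nos1ap and Pde9a) and 3 fell (Slc7a6, Prmt2 and Dynll1). Over all tested genes 4.16% were higher and 6.82% lower there. These 7 genes had all changed in the opposite direction in CKD against NC, and the CKD libraries are shared by both comparisons. With TPM and with plain totals 2 of the 53 were higher and 7 lower in SZ against CKD. Of all 13851 tested genes 289 were higher and 1702 lower with TPM, and 382 and 1752 with plain totals. In SZ against NC 9 of the 53 rose and 4 fell, where 12.5% of all tested genes were higher and 8.61% lower. With TPM 16 of the 53 were higher and 0 lower, against 3432 and 266 of all tested genes. With plain totals 12 were higher and 0 lower, against 2861 and 379 of all tested genes.

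**Figure D4:**
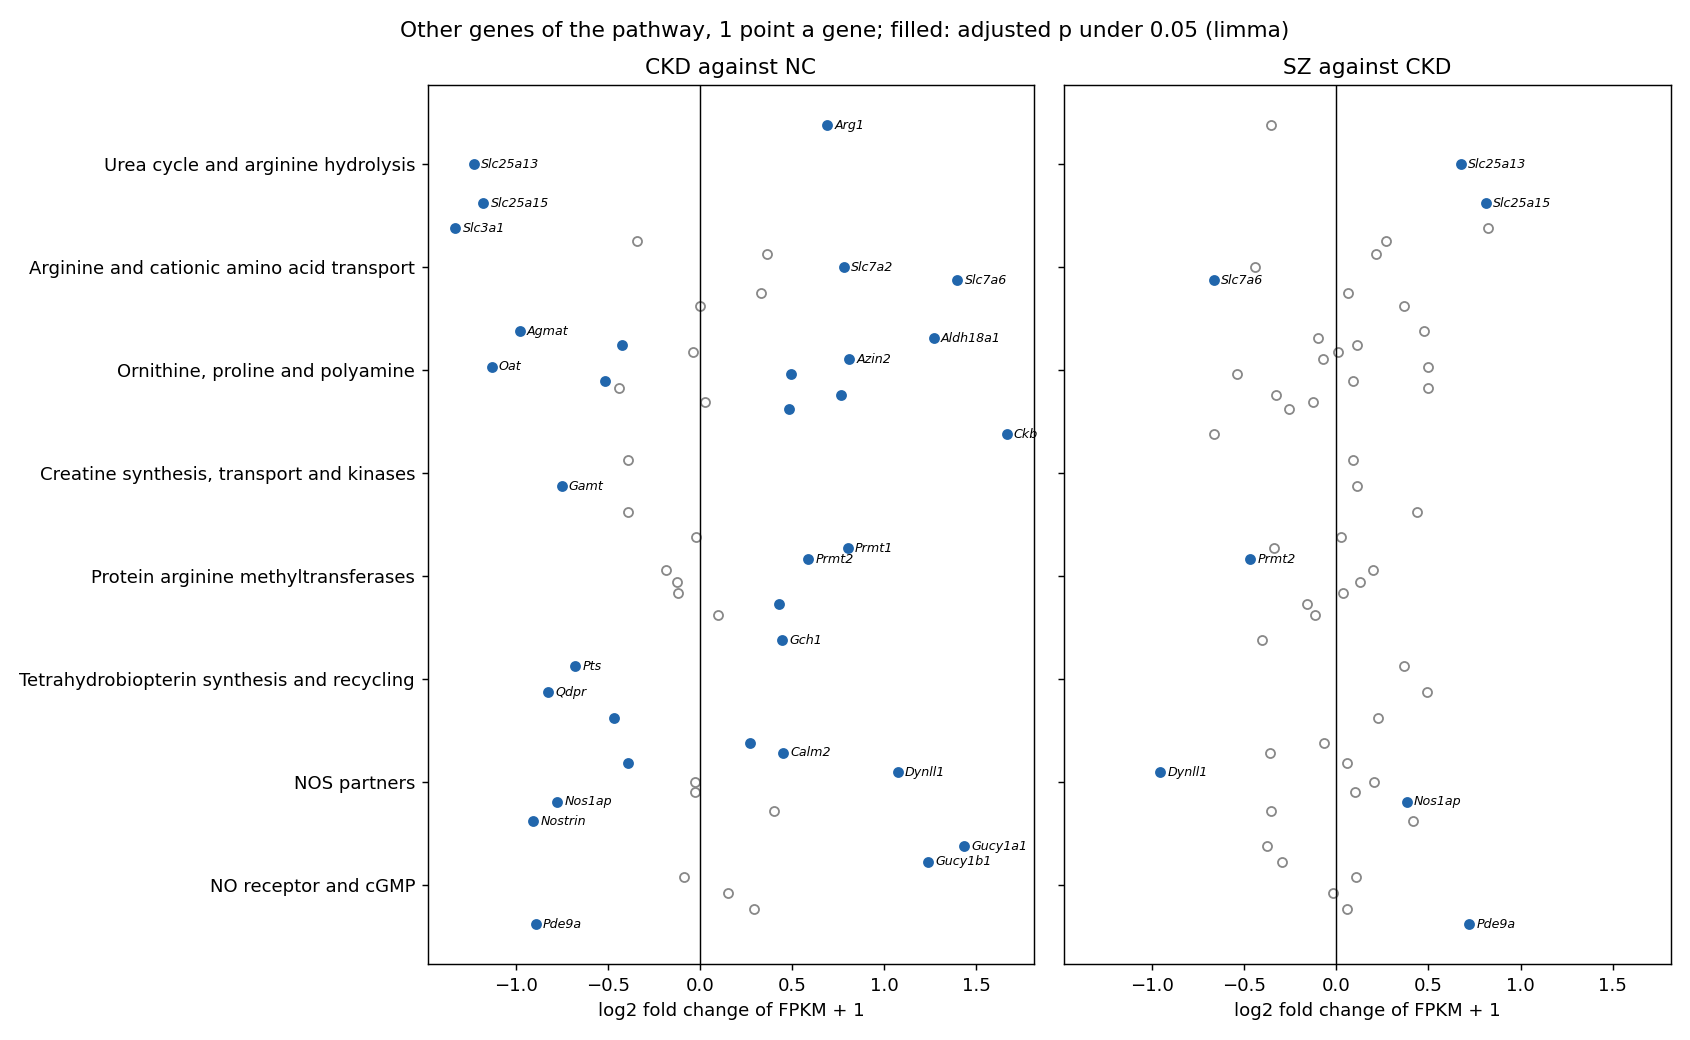
Log2 fold change of FPKM + 1 (horizontal axis) of the 53 tested pathway genes, 1 point each, by list (rows), with CKD against NC left and SZ against CKD right; filled points have a limma adjusted p under 0.05. In CKD against NC 18 filled points lie right of 0 and 15 left, and in SZ against CKD 4 lie right and 3 left.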

How the data were processed

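Total RNA of rat kidneys, taken up in Trizol, was made into 18 TruSeq RNA libraries (Illumina), per the labels' protocols. The authors deposited 1 table of FPKM values; HISAT2 2.0.5 and mRatBN7.2 are named in the submitters' processing notes. The sources used here do not give the counting program, strand setting or annotation release. FPKM times gene length gave whole reads for 100% of values above 0 (tolerance 0.01), and these reads were used only for depth and for limma voom as an alternative. The 10 genes, the gene lists, the markers and the ratios were chosen with earlier results of these data known.

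The test was limma 3.58.1 (R 4.3.3) on log2(FPKM + 1), 2-sided, with 1 fit of 3 group means and an intensity trend over all 18 libraries and Benjamini-Hochberg adjustment over 13851 genes with FPKM of at least 1 in at least 6 libraries; a gene was called at an adjusted p under 0.05. The fit was tested on simulated data. Library ratios were compared with exact permutation tests (scipy 1.17.1), adjusted over 18 tests. All 10 genes were named whatever their values. Of each pathway list, up to 2 called genes per direction in CKD against NC with the largest fold change were named, as were any called in SZ against CKD and 9 genes named whatever their values. Of the genes listed, 1 was left out of the lists and of all their counts and is not reported here.

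Alternatives were a pseudocount of 0.1, no minimum level, a mean FPKM of at least 5, TPM or plain read totals, only the 2 groups compared, replicate number as a block, voom on the reads, no intensity trend, and leaving out each library or CKD 2, CKD 5 and SZ 3. Added after seeing the data were voom without a minimum, and the left-out libraries without a minimum. Promoters came from RefSeq (GRCr8); deposited coordinates are mRatBN7.2 and were not converted.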

Additional observations from a re-analysis of the deposited data

Results flagged for a closer look

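Within each group of 6 libraries, the gap between the most extreme library and its neighbour was set against the range of the group, for each of the 10 genes. Of 30 such groups 4 exceeded Dixon's critical value for 6 samples. Chance gives about 1 in 20 for normally distributed values, a rate that does not apply to groups in which most libraries are at 0. In SZ kidneys, SZ 3 was the low library for Ddah1 (108 FPKM, next lowest 219 FPKM; gap over range 0.636); SZ 3 is also 1 of the 3 libraries in which values fell with gene length. In NC kidneys, NC 5 was the low library for Nos3 (1.61 FPKM, next lowest 2.63 FPKM; gap over range 0.645), on 102 reads. The other 2 rest on a handful of reads, with 4 of 6 NC libraries at 0 for each gene. NC 5 was the high library for Ddah2 (0.232 FPKM, 5 reads; gap over range 0.792), and NC 6 the high library for Nos2 (0.0587 FPKM, 4 reads; gap over range 0.728).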

How the results depend on the processing

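Across 30 alternatives for CKD against NC, Ass1 and Ddah1 passed in every one, Agxt2 in 29 and Asl in 28; no tested gene reversed there. In SZ against CKD, Asl passed in 29 of 30 and Ass1 in 20 of 30, and in 14 and 3 of 18 further fits that left out 1 library with no minimum level. The number of genes of the set called in SZ against CKD was 0 with only the 2 groups fitted, 1 with the replicate block and 1 to 3 when 1 library was left out (7 tested), and, with no minimum level (10 tested), 1 with all libraries and 0 to 4 when 1 library was left out; in SZ against NC it was 2 with only the 2 groups fitted, 1 without CKD 2, CKD 5 and SZ 3 (with or without a minimum), 1 with voom without a minimum (Nos2) and 0 to 1 when 1 library was left out. Replicate numbers did not pair libraries (r of same-numbered libraries -0.360 to 0.232, over 0.1 in 4 of 18 pairs); with the replicate block 6636, 1195 and 2584 genes were called in CKD against NC, SZ against CKD and SZ against NC, and Ass1 lost its call in SZ against CKD (limma adjusted p = 0.051). Genes called numbered 4447 in CKD against NC and 1627 in SZ against NC at a mean FPKM of at least 5, where fewer genes were tested and Nos3 was not. Voom on the recovered reads called 6842, 1517 and 2719 genes in CKD against NC, SZ against CKD and SZ against NC, against 6973, 1521 and 2919 with limma on FPKM. In SZ against CKD they numbered 554 with only the 2 groups fitted and 533 to 3058 when 1 library was left out (669 without CKD 5, 831 without SZ 1, 850 without SZ 2, 1010 without CKD 3, 2798 without CKD 1).

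Every reversal was of a difference that did not pass. Arg2 in SZ against CKD gave -0.0812 with TPM, -0.06485 with plain totals, -0.1896 without CKD 2, CKD 5 and SZ 3, and -0.1514 to 0.3474 when 1 library was left out. Nos3 in SZ against CKD gave -0.1156, -0.09803 and -0.04289 under the same 3 settings, -0.001663 with voom, -0.001376 with voom without a minimum, and -0.0464 to 0.04647 when 1 library was left out. Asl in SZ against NC gave -0.02504 to 0.1434 when 1 library was left out. The ratio of Agxt2 over Ddah1 in CKD against NC no longer passed with a pseudocount of 0.1 (0.7627) or without CKD 2, CKD 5 and SZ 3 (0.3894), and ran from 0.5347 to 0.8866 when 1 library was left out. Ddah2 over Ddah1 no longer passed with a pseudocount of 0.1 (CKD against NC 1.746, SZ against NC 1.456). When 1 library was left out, Arg2 over Ass1 ran from -0.05147 (without NC 2) to 0.5455 in CKD against NC (0.298 with all) and from -0.7454 to 0.008699 (without SZ 4) in SZ against NC (-0.396 with all), Ass1 over Asl from -0.1022 to 0.04804 for SZ against CKD, Gatm over Gamt from -0.4772 to 0.1069 (-0.163 with all; above 0 without CKD 3 or NC 2) and Nos3 over Pecam1 from 0.3104 to 0.5384 for CKD against NC, the last passing only without CKD 3. The cause of these shifts was not tested. Depth limits Nos1, Nos2 and Ddah2, which had at most 235, 224 and 24 reads in any group.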
